A study of Homo sapiens with 6 samples.

Results

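RNA bisulfite sequencing of HEK293T cells listed 5-methylcytosine (m5C) at 2 or more positions of the same gene in 33 genes. The lists held 501 genes in all, of which 21 with names beginning with MT- or RPS were left out of the selection. The 33 genes held 69 of the 542 listed sites. They were chosen by counting the distinct sites that the lists of 6 sequencing libraries gave to each gene identifier, so the number of sites per gene is the selection itself and is given as a description. In all, 31 genes had 2 sites, MDM4 had 3 and OTUD5 had 4. Another 447 genes without those name starts had 1 site.

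HEK293T is a human embryonic kidney cell line, here of the wild-type genotype and grown without a treatment named in the labels. Its lysate, which held cycloheximide to keep ribosomes on mRNA, was separated on a sucrose gradient, and poly(A)-selected RNA from 6 parts of the gradient was treated with bisulfite. The parts were free RNA without ribosomes, RNA bound by either the small or the large ribosomal subunit (separate libraries), monosomes with 1 ribosome, light polysomes with 2 to 5 ribosomes and heavy polysomes with more than 5. Each was represented by 1 library, so no value has a replicate and every test below compares libraries, with counting error only. Values are m5C levels, the percent of reads over a cytosine that still showed C after unmethylated cytosines had been converted, and the lists carry no expression values against which the cell line could be checked.

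m5C in mRNA is made by methyltransferases of the NSUN family. NSUN2, which also methylates tRNA, acts on cytosines followed by a G-rich stretch, and these are called Type I sites. NSUN6 acts on cytosines followed by UCCA, and these are called Type II sites. Here every site followed by UCCA in its transcript was called Type II and every other site Type I. Polysomes carry mRNAs under translation, so the study used the gradient to ask how m5C relates to translation. Several sites in the same gene allow their levels to be compared within RNA of the same gene.

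The sites fell into a group of tight clusters and a group of widely spaced sites, and the sequences of the clusters are given first because the spacing is read directly from them. Sequences are from the GRCh37 genome, on the strand of the transcript, from 5′ to 3′, in DNA letters, with each listed cytosine in capitals. The following stretches lie in the 3′ UTR of their genes and recur many times in the genome.
BRI3BP, chr12:125511970-125511991, + strand: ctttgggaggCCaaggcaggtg
DTD2, chr14:31916431-31916452, - strand: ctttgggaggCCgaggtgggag
DESI1, chr22:41995806-41995826, - strand: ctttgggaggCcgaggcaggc
DESI1 has a single site in this stretch, and its other site is far upstream in the 5′ UTR. BRI3BP encodes a BRI3-binding membrane protein, DTD2 a D-aminoacyl-tRNA deacylase and DESI1 a desumoylating isopeptidase. Clusters in the 3′ UTR were also listed in RAB2B, a small GTPase, QPCTL, a glutaminyl cyclase of the Golgi, and MDM4, an inhibitor of p53. The stretches shown resemble the consensus of Alu elements, short interspersed repeats that are frequent in human 3′ UTRs. That resemblance is background knowledge, since no repeat annotation was used.

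The other clusters lay in sequence that did not recur so often where this could be counted. The 21 nt around the RP11-364L4.1 sites still have 9 and 10 other exact matches in the genome. Matches were not counted for the 3′ RPLP2 site, whose stretch is cut short at the transcript start. Of these clusters, 3 lay in coding sequence, in OTUD5, PRDM13 and TBKBP1. The stretches below show the spacing of the cytosines.
OTUD5, chrX:48814700-48814726, - strand: tgggcgtgggCggCggCggcacgggcg
TBKBP1, chr17:45786502-45786524, + strand: gcgcggcctaCgCgggcgcctcc
DFFB, chr1:3800773-3800794, + strand: agcccaacttCCagaggacagc
RPLP2, chr11:809953-809977, + strand: tgcgtcggcgCcttCcttttcctcc
RP11-364L4.1, chr4:144271197-144271218, - strand: ggatggggaaCCgcggtggctt
OTUD5 encodes a deubiquitinase, PRDM13 a zinc-finger transcription factor, TBKBP1 an adaptor of the kinase TBK1, DFFB the caspase-activated DNase and RPLP2 a stalk protein of the large ribosomal subunit. RP11-364L4.1 is annotated as a processed pseudogene. The DFFB cluster lies in the 3′ UTR, and the 5′ cytosine of the RPLP2 pair lies just upstream of the annotated transcript start. The 21 nt around the 3′ cytosine of RP11-364L4.1 are the same as those around a site of another processed pseudogene of the set, RP3-337H4.6.
RP3-337H4.6, chr6:43507367-43507387, - strand: gatggggaacCgcggtggctt

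Of the widely spaced sites, the following are shown because the levels and changes described below turn on them. The second WIZ site has no interval because its stretch spans a splice junction.
TRAF7, 5′ site, Type II, chr16:2225887-2225907, + strand: gcagcgtctaCtccattgctg
TRAF7, 3′ site, Type I, chr16:2226350-2226370, + strand: cgactcttctCaggggctgtg
WIZ, 3′ site, Type I, chr19:15536417-15536437, - strand: cgacacactgCgagagatcct
WIZ, 5′ site, Type I, spliced: gcccttgaacCtcactttaga
ATP5SL, 5′ site, Type II, chr19:41944204-41944224, - strand: aaggacaataCtccagttcct
ATP5SL, 3′ site, Type I, chr19:41938155-41938175, - strand: ggagcagcctCgggacacagc
GPR137, 5′ site, Type I, chr11:64052682-64052702, + strand: ccgcccgcctCgggggacacc
GPR137, 3′ site, Type I, chr11:64055903-64055923, + strand: tgggcttcttCcgggtgcacc
TRAF7 encodes an E3 ubiquitin ligase and WIZ a zinc-finger partner of the histone methyltransferases G9a and GLP. ATP5SL, named DMAC2 in newer annotation, encodes an assembly factor of respiratory complex I, and GPR137 an integral membrane protein.

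The 69 sites were seen 160 times over the 6 libraries, and many of them only once. In all, 33 sites, or 47.8%, were listed in 1 library, beside 49.7% of the sites of other genes. Another 5 sites, or 7.25%, were listed in all 6, beside 5.50% in other genes. Those 5 were in ATP5SL, GPR137, NDUFB7, SAMD11 and TRAF7. In 10 genes every site was listed in 1 library. From the free to the heavy polysome library, the lists held 17, 25, 28, 26, 30 and 34 of these sites. In the same order, the lists held 172, 199, 233, 177, 216 and 225 sites of the whole series. The median coverage of a listed site was 69 reads, the same as in the other genes. The median level was 16% against 18.1% in the other genes.

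**Figure D1:**
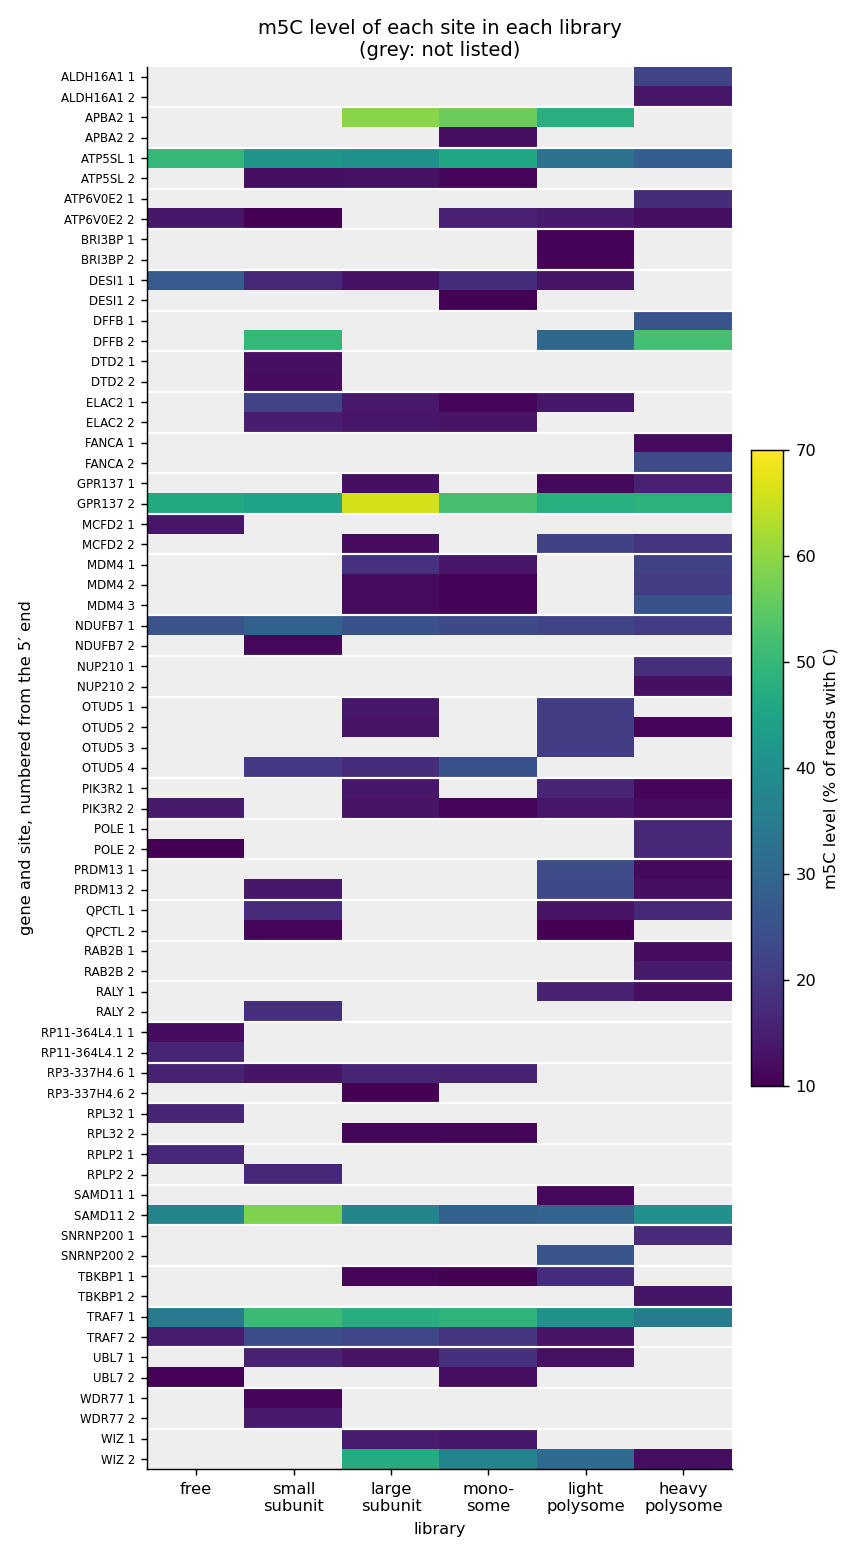
Heat map of the m5C level (color, percent of reads with C) of each of the 69 sites (vertical axis, numbered from the 5′ end of each gene) in each of the 6 libraries (horizontal axis, from light to dense), with grey where a site was not listed. Many sites are listed in 1 library, and 5 sites are listed in all 6.

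A gene entered the set through its least frequently listed sites, and several of these were at the limit of listing. The lists held no site with a level under 10%, under 20 reads or under 5 reads with C, so sites just outside these limits cannot be shown. Just inside, 7 sites in 6 genes were listed in 1 library with exactly 5 reads with C. Those were the 3′ UTR site of DESI1 at 10.4%, both BRI3BP sites at 10.6%, a RAB2B site at 11.9%, the 3′ site of APBA2 at 12.2%, an RPLP2 site at 16.7% and an OTUD5 site at 20.8%. Without these 7 sites, 28 genes would have had 2 or more. The median number of reads summed over the listings of a site was 114 in the 33 genes and 90 in the 1-site genes, and the part of depth in which genes were listed more than once was not tested.

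Distances between sites of the same gene fell into separate ranges with a gap between them. The 33 genes gave 40 pairs of sites, of which 15 pairs in 11 genes were at most 10 nt apart and none lay between 11 and 150 nt. In 6 of these genes a pair was at adjacent cytosines, 1 nt apart. The other 25 pairs lay from 166 nt to 215311 nt apart in the genome, with a median of 3221 nt. On the spliced transcript, 24 of them could be measured and lay 104 nt (WDR77, a cofactor of the methyltransferase PRMT5) to 4716 nt (POLE, the catalytic subunit of DNA polymerase epsilon) apart, with a median of 632.5 nt. All 24 sites of the tight clusters were Type I by the absence of UCCA, and 9 of them had at least 2 G in the next 3 bases while 15 did not. Among the 25 wider pairs, 11 joined a Type I with a Type II site, and in NUP210, a nuclear pore protein, and POLE both sites were Type II. The wider pairs lay both in coding sequence in 14 cases, 1 in coding sequence and 1 in a UTR in 5, both in the 3′ UTR in 2, and 1 in each UTR in 2. A pair shared an exon in 7 of the 25.

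Repeated sequence surrounded many of the clustered sites. The 21 nt around a site, 10 nt on either side, had more than 100 other exact matches in the genome for 12 of the 69 sites in 6 genes, against 9 of the 473 sites of other genes. Of the 12, 11 were in tight clusters. A full 21-nt stretch was available for 68 of the 69 sites and for 472 of the 473, and a site without one was counted as having no match. The study mapped reads to a converted genome, and with every C read as T the numbers were 15 of 69 and 31 of 473. The sites added in this way were in ALDH16A1, with 114 other matches, MCFD2, with 486, and RPL32, with 27458, and none was in a cluster. As written in the genome, the number of other matches was 14201 and 14475 for the BRI3BP sites, 20526 for the 3′ UTR site of DESI1, and 2815 and 2839 for the DTD2 sites. These genes therefore share that sequence with many other places in the genome. In the processed pseudogenes, the sites of RP11-364L4.1 had 10 and 9 other matches and those of RP3-337H4.6 had 16 and 10. The 21 nt around those pseudogene sites occur in transcripts of 9 to 17 genes. Whether reads from other places entered the counts was not tested in any of these genes.

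The levels within a tight cluster lay close together in nearly every library. MDM4 was listed in the large subunit, monosome and heavy polysome libraries, and its 5′ site stood at 18.5%, 13.7% and 21.7%. Its middle site stood at 11.7%, 10.6% and 20.8%, and its 3′ site at 11.9%, 10.6% and 25%. The heavy polysome values rest on 23 or 24 reads, and all 3 sites were highest there. In OTUD5, the 3 clustered sites had the same 20.8% in the light polysome library, 5 of 24 reads each. In the large subunit library, the 5′ and middle sites of that cluster stood at 13.9% and 13.2%, and the middle site was also listed in the heavy polysome library at 11.1%. The 4th OTUD5 site, over 100 nt downstream, stood at 20.0% in the small subunit, 17.5% in the large subunit and 25% in the monosome library.

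The pair of sites in PRDM13 stood at 23.8% and 23.1% on light polysomes and at 11.6% and 12.5% on heavy polysomes, and the 3′ site was also listed with the small subunit at 14.0%. QPCTL had 17.2% and 10.9% with the small subunit and 13.1% and 10.2% on light polysomes, with the 5′ site alone at 16.9% on heavy polysomes. In QPCTL the 5′ site was the higher in both shared libraries, and in PRDM13 both sites were lower on heavy than on light polysomes. BRI3BP had 10.6% at both sites in the light polysome library. From 5′ to 3′, DTD2 had 12.5% and 11.9% with the small subunit, RAB2B 11.9% and 14.3% on heavy polysomes and RP11-364L4.1 11.9% and 16.2% in free RNA.

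DFFB was the exception. Its 5′ cytosine stood at 25.5% in the heavy polysome library, 12 of 47 reads with a 95% Wilson interval of 15.3% to 39.5%. The next cytosine stood at 52.2%, 24 of 46 reads with an interval of 38.1% to 65.9%. The 3′ cytosine was also listed without its neighbour, at 50.0% in the small subunit and 30.0% in the light polysome library, on 20 reads each. In TBKBP1 and RPLP2 the clustered sites were never listed in the same library. The 5′ TBKBP1 site stood at 11% in the large subunit, 10.2% in the monosome and 17.7% in the light polysome library, and the 3′ site at 13.5% in the heavy polysome library. Both RPLP2 sites stood at 16.7%, the 5′ site in free RNA and the 3′ site with the small subunit.

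**Figure D2:**
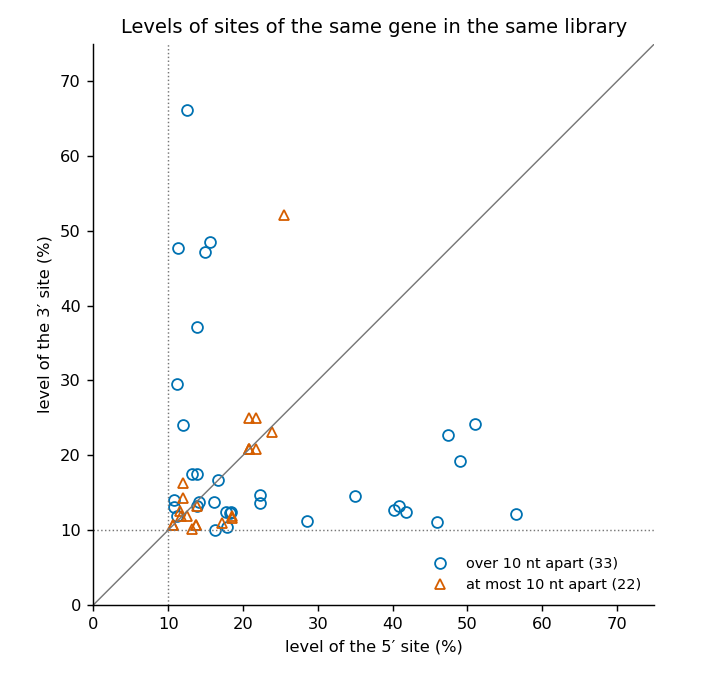
Level of the 3′ site (vertical axis, percent) against the level of the 5′ site (horizontal axis, percent) for each pair of sites of the same gene in each library that listed both, with the line of equal levels and dotted lines at the 10% listing limit. The 22 points of pairs at most 10 nt apart lie near the line except for DFFB, and the 33 points of wider pairs spread along both axes.

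Over all pairs listed together, the median level difference was smaller within clusters than between widely spaced sites. The median absolute difference in a library was 1.64 percentage points over 22 observations of clustered pairs, with an interquartile range of 0.288 to 3.94. It was 12 points over 33 observations of wider pairs, with an interquartile range of 4.34 to 27.7. Pairs of sites from different genes differed by a median of 9.76 points over 125371 observations. Among observations with both levels under 30%, the medians were 0.906 points for clustered pairs, 5.4 points for wider pairs and 4.73 points for different genes. In 9 of the 22 observations of clustered pairs, both sites had the same number of reads with C. Sites at most 10 nt apart are largely covered by the same reads, so their levels are not separate measurements, and no test was made of these medians.

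A test of levels found differences mainly in wider pairs. With reads summed over the libraries listing both sites, 8 of 33 pairs of the same gene differed by Fisher's exact test at an adjusted p under 0.05, or 24.2%. The same test called 32.2% of all 82018 pairs of sites listed together. Pooled over clustered and wider pairs, the share within genes was thus not above the background. The pooled share does not stand for the wider pairs alone. The calls were 7 of 20 wider pairs and 1 of 13 clustered pairs, and the median number of reads per site was 105.5 in the former and 64 in the latter. The test takes the reads at both sites as separate samples, but clustered sites are largely covered by the same reads. A difference of the size seen in most clusters was not detectable at this depth.

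**Figure D3:**
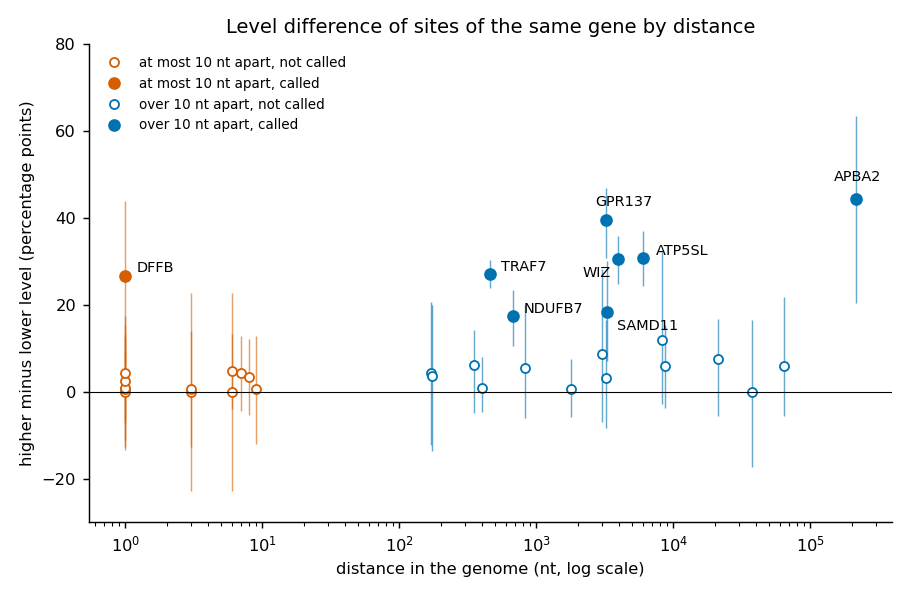
Higher minus lower level (vertical axis, percentage points, reads summed over the libraries listing both sites) against the distance in the genome (horizontal axis, nt, log scale) for the 33 pairs listed together, with 95% Newcombe intervals as bars and filled points for an adjusted p under 0.05. The clustered pairs lie under 5 points apart except DFFB, and the 7 called wider pairs lie 17.3 to 44.3 points apart.

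TRAF7 carried the pair with the most reads. Its Type II site, in exon 18 of 21, stood at 35.0% in free RNA, 51.0% in the small subunit, 47.5% in the large subunit, 49.1% in the monosome, 40.8% in the light polysome and 35.2% in the heavy polysome library. Its Type I site, in exon 20 and 284 nt downstream on the transcript, stood at 14.5%, 24.2%, 22.7%, 19.2% and 13.2% in the first 5 of these libraries and was not listed in the last. The Type II site was higher in all 5 shared libraries, and over them it stood at 46.7% against 19.7%. The difference was 27 points (95% Newcombe interval 23.8 to 30.2, Fisher's exact test with adjusted p = 1.21e-58).

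ATP5SL had the same order of types. Its Type II site, in exon 2, stood at 50.0%, 41.8%, 40.2%, 46.0%, 32.7% and 28.0% from the free to the heavy polysome library, and the free value rests on 28 reads. Its Type I site, in exon 6, stood at 12.4% in the small subunit, 12.7% in the large subunit and 11% in the monosome library. The 3′ minus 5′ difference over these 3 libraries was -30.7 points (interval -36.9 to -24.4, Fisher's exact test with adjusted p = 9.48e-21). The groups of levels did not overlap.

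In WIZ and GPR137 the 3′ site was higher and both sites were Type I. The 3′ WIZ site, in exon 10 of 13, stood at 47.1% with the large subunit and 37.1% on monosomes, where the 5′ site in exon 7 stood at 14.9% and 13.8%. Over these libraries the difference was 30.5 points (interval 24.8 to 35.8, Fisher's exact test with adjusted p = 2.36e-22). The 3′ GPR137 site, in coding sequence, stood at 46.4%, 44.5%, 66.1%, 52.4%, 47.7% and 48.5% from the free to the heavy polysome library. The 5′ site, in the 5′ UTR of another transcript of the gene, stood at 12.5% in the large subunit, 11.3% in the light polysome and 15.6% in the heavy polysome library. The 5′ minus 3′ difference was -39.5 points (interval -46.9 to -30.9, adjusted exact p = 1.49e-15 by the same test).

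NDUFB7, APBA2, SAMD11 and DFFB had their called difference in 1 library each. NDUFB7, a subunit of respiratory complex I, had 28.6% at its site in exon 2 and 11.2% at its 3′ site in the small subunit library (adjusted exact p = 9.98e-06). APBA2, an adaptor that binds the amyloid precursor protein, had 56.5% in the 5′ UTR and 12.2% in coding sequence in the monosome library, on 23 and 41 reads (adjusted exact p = 0.00149). SAMD11, a SAM domain protein, had 11.2% at its Type II coding site and 29.5% at its Type I site in the 3′ UTR in the light polysome library (adjusted exact p = 0.00577). DFFB differed by -26.6 points (interval -43.8 to -6.83, adjusted exact p = 0.0354), and this pair of adjacent cytosines was the only clustered pair called. Its interval and p-value take the reads at both cytosines as separate, although most of them are the same reads. APBA2 and SAMD11 were singled out after their values were seen. The 5′ site was the higher in 4 of the 7 called wider pairs and the 3′ site in 3. Of the wider pairs listed together, 3 of 7 joining both types and 4 of 13 of the same type were called, and the Type II site was the higher in 3 of the 7. A level under 10% was not listed, so differences against a lower level do not appear in these counts.

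Between subpolysomal and polysomal reads, the called changes in these genes were all falls. The 3 libraries lighter than monosomes were summed as the subpolysomal side and both polysome libraries as the polysomal side, for 27 sites listed on both sides. Only the libraries that listed a site entered its sums. By Fisher's exact test with adjustment over the 178 sites of the series tested, 6 of 27 changed, beside 14.6% of all sites tested. All 6 were lower on the polysomal side, where the call rate over all sites was 11.2%, and none was higher, where it was 3.37%. Without a test, 15 of 27 sites were lower, or 55.6%, beside 65.7% of all sites. The median change was -0.74 points against -2.12 points over all sites tested. In bulk RNA, fewer methylated copies of a transcript and a different mix of isoforms cannot be told apart.

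**Figure D4:**
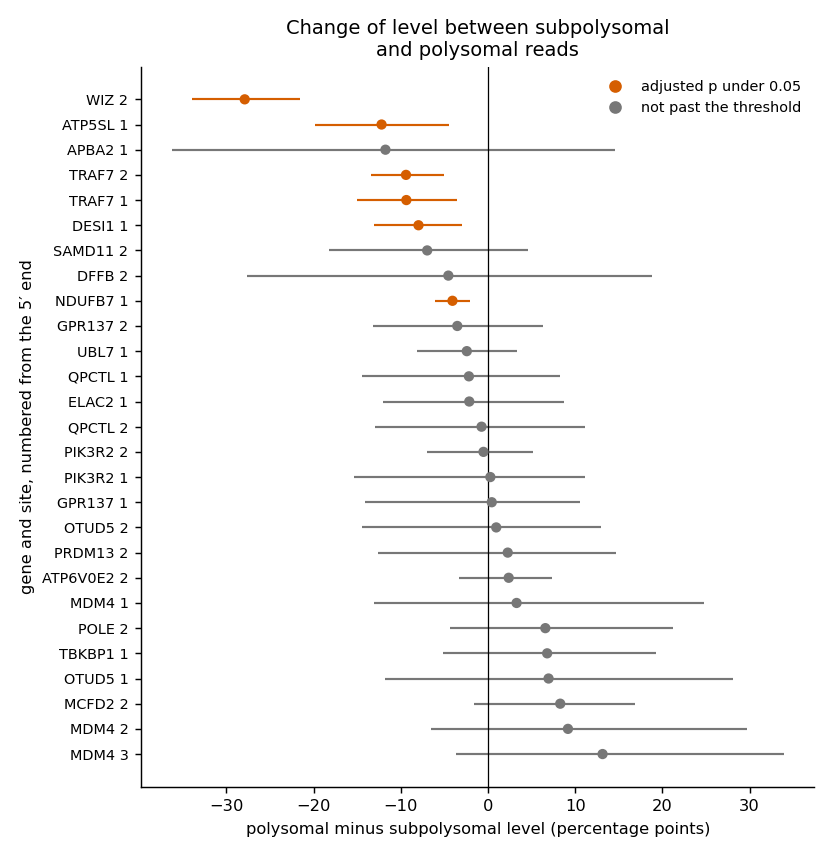
Polysomal minus subpolysomal level (horizontal axis, percentage points) of the 27 sites listed on both sides (vertical axis, sites numbered from the 5′ end of each gene), with 95% Newcombe intervals as bars. The 6 sites past the threshold lie at -4.07 to -27.9 points, and the intervals of all other sites cross 0.

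The 3′ site of WIZ changed most. From the large subunit to the heavy polysome library its level was 47.1%, 37.1%, 30.9% and 12.3%, on 420, 105, 139 and 235 reads, and it was lower in each denser library. Subpolysomal reads, which here came from the large subunit library alone, stood at 47.1% and polysomal reads at 19.3%, a change of -27.9 points (interval -33.9 to -21.5, adjusted exact p = 2.55e-15). The 5′ WIZ site was listed in the large subunit and monosome libraries only, so its change could not be tested.

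Both TRAF7 sites fell. The Type II site went from 48.1% of 675 reads to 38.8% of 495 reads, a change of -9.36 points (interval -15.0 to -3.61, adjusted exact p = 0.0154). The Type I site went from 22.6% of 988 reads to 13.2% of 410 reads, a change of -9.40 points (interval -13.4 to -5, adjusted exact p = 0.000537). The polysomal reads of the Type I site came from the light polysome library alone. In free RNA both TRAF7 sites were lower than with the small subunit, at 35.0% of 20 reads and 14.5% of 69 reads.

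The Type II site of ATP5SL went from 42.1% to 29.9%, a change of -12.2 points (interval -19.9 to -4.50, adjusted exact p = 0.0197). The site of NDUFB7 in exon 2, with the highest coverage of all 69 sites, stood at 25.3%, 28.6%, 25%, 23.3%, 22.3% and 20.4% from the free to the heavy polysome library. It went from 25.8% of 2396 reads to 21.7% of 7040 reads, a change of -4.07 points (interval -6.10 to -2.10, adjusted exact p = 0.000537). DESI1 had its 5′ UTR site at 27.2% in free RNA, 16.9% in the small subunit, 13.0% in the large subunit, 17.9% in the monosome and 13.3% in the light polysome library. Its change of -7.97 points (adjusted exact p = 0.0189) rested on the free library, and without that library it was -1.28 points with an adjusted exact p of 0.998. Its repeated 3′ UTR site was listed in the monosome library only.

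**Figure D5:**
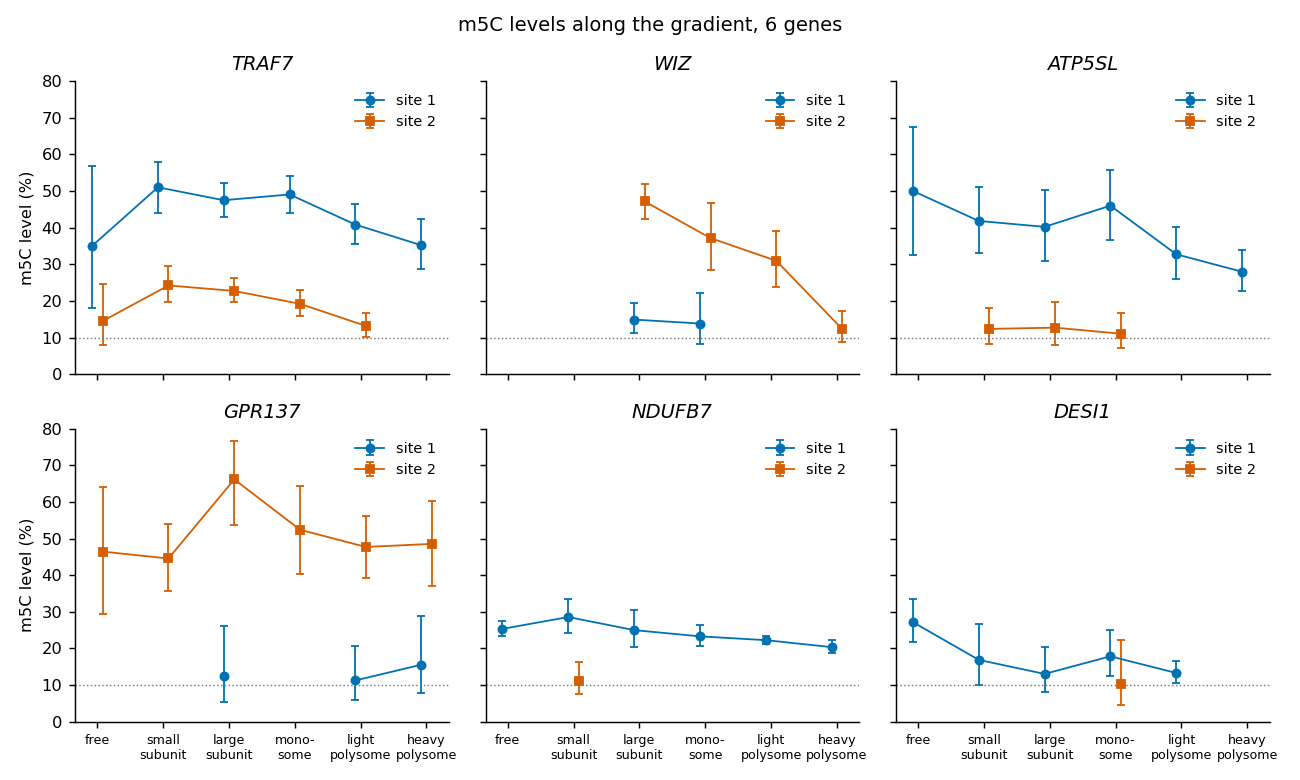
m5C level (vertical axis, percent, with 95% Wilson intervals) of the sites of 6 genes in each library (horizontal axis, from light to dense), with sites numbered from the 5′ end and a dotted line at the 10% listing limit. The sites of TRAF7, WIZ, ATP5SL and GPR137 lie apart in each shared library, and the WIZ 3′ site goes from 47.1% to 12.3%.

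Between the ends of the gradient, 8 sites could be compared and 1 was called by Fisher's exact test, beside 15.7% of the 51 sites tested in the series (13.7% lower and 1.96% higher on heavy polysomes). Without a test, 4 of the 8 were lower, beside 72.5% of all 51. That site was NDUFB7 in exon 2, at 25.3% in free RNA and 20.4% on heavy polysomes (adjusted exact p = 0.00239). The Type II site of ATP5SL stood at 50.0% of 28 reads and 28.0% of 236 reads, a difference of -22.0 points (interval -40.2 to -3.65, adjusted exact p = 0.117). The Type II site of TRAF7 stood at 35.0% and 35.2%, with an interval of -22.5 to 18.6 points for the difference. Against the monosome library in place of the free library, 3 of 11 sites were called, beside 20% of the 90 sites then tested. They were the WIZ 3′ site (37.1% to 12.3%, adjusted exact p = 5.49e-06), the ATP5SL Type II site (46.0% to 28.0%, adjusted exact p = 0.0103) and the TRAF7 Type II site (49.1% to 35.2%, adjusted exact p = 0.0148). NDUFB7 then stood at 23.3% and 20.4% (adjusted exact p = 0.313).

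Whether the sites of a gene move together was tested in the 8 pairs, in 6 genes, that had both sites on both sides of the gradient. Each site was summed over the libraries that listed it. Only in MDM4 did the sites rest on the same libraries, so for the other genes the test set changes over unlike libraries against each other. The exact test of equal odds ratios called 0 of 8, and 0 of 8 had an unadjusted p under 0.05. It called 5.54% of all 15753 pairs of sites so tested. In TRAF7 the changes were -9.36 and -9.40 points, and their difference of 0.0398 points had an interval of -7.11 to 7.04 (adjusted exact p = 0.735). In odds rather than points, the test likewise did not call them different. The Type II change used both polysome libraries and the Type I change the light polysome library alone, so their closeness in points is between unlike sets. From the small and large subunit libraries to light polysomes, the Type II site changed by -10.2 and -6.65 points. The Type I site changed by -11.0 and -9.54 points. From free RNA to light polysomes the Type II and Type I sites changed by 5.82 and -1.32 points. For the other 7 pairs the intervals were wide, and a missed threshold does not show that the changes were equal. In GPR137 the sites changed by 0.43 and -3.52 points, and the interval of the difference was -13.5 to 18.0. The only subpolysomal library that listed both GPR137 sites was the large subunit library. From it to light polysomes the sites changed by -1.23 and -18.4 points, and to heavy polysomes by 3.06 and -17.6 points. The pair deposited under the name PIK3R2, a regulatory subunit of PI3-kinase, carried a gene identifier that the annotation used here gives to an unnamed protein-coding gene, and the sequence of both sites is found in transcripts of 2 genes, PIK3R2 and the unnamed gene. In that pair the sites changed by 0.27 and -0.52 points, with an interval of -15.9 to 13.5. The MDM4 sites changed by 3.28, 9.17 and 13.1 points from 5′ to 3′, the QPCTL sites by -2.19 and -0.74 points and the OTUD5 cluster pair by 6.94 and 0.94 points. In the libraries that listed both sites of that OTUD5 pair, large subunit and light polysome, the changes were 6.94 and 7.68 points. The summed changes had the same sign in 6 of the 8 pairs, beside 54.3% of all 15753 pairs. That was 5 of 5 clustered pairs, which share reads, and 1 of 3 wider pairs. No pair had both sites in the free and the heavy polysome libraries, where the same test called 6.75% of pairs of the series.

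Counted over all pairs of libraries together, sites of the same gene more often changed in the same direction than in opposite directions. Over the 15 pairs of libraries there were 35 observations in 10 genes, and the sites went the same way in 29 and opposite ways in 6, or 82.9% the same. Pairs of sites from different genes went the same way in 51.1% of 73945 observations. Clustered pairs went the same way in 12 of 12 observations, 9 of them from MDM4, and share reads. Wider pairs did so in 17 of 23, or 73.9%. The observations reuse libraries and sites and are not independent, so no test was made, and with at least 50 reads at each listing 66.7% of 12 observations remained the same way.

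TRAF7 gave 10 of the 35 observations and went the same way in 8. From the small subunit to the light polysome library its sites changed by -10.2 and -11 points, and from the free to the small subunit library by 16 and 9.72 points. The exceptions were the step from the free to the light polysome library, at 5.82 and -1.32 points, and that from the large subunit to the monosome library, at 1.58 and -3.52 points. ATP5SL went opposite ways in 3 of 3, with changes of up to 5.79 points at the Type II site and of -1.66 to 0.34 points at the Type I site. ELAC2, the endonuclease that trims tRNA 3′ ends, went the same way in 3 of 3, as did PIK3R2, and GPR137 in 2 of 3.

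The levels behind ELAC2 and PIK3R2 were low and near each other. The 5′ ELAC2 site stood at 22.2% in the small subunit, 14.1% in the large subunit, 10.7% in the monosome and 13.9% in the light polysome library. The 3′ ELAC2 site stood at 14.7%, 13.7% and 13.1% in the first 3 of these. Summed over the shared libraries they differed by 0.515 points (interval -7.50 to 5.72 for the 3′ minus the 5′ site). The Type II site of PIK3R2 stood at 13.9% in the large subunit, 16.2% in the light polysome and 11.1% in the heavy polysome library. Its Type I site stood at 14.3% in the free, 13.2% in the large subunit, 11% in the monosome, 13.7% in the light polysome and 11.9% in the heavy polysome library. Their summed levels differed by 0.936 points (interval -4.78 to 7.97).

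The other genes had low levels and few listings. Apart from APBA2 and SAMD11, 12 genes were not described by library above, and their 24 sites had 40 listings at 10.0% to 25.9%, with a median of 14.2%. They were ALDH16A1, ATP6V0E2 (a subunit of the V-ATPase), FANCA (of the Fanconi anemia core complex), MCFD2 (a partner of the cargo receptor LMAN1), NUP210, POLE, RALY (an RNA-binding protein), RP3-337H4.6, RPL32 (a protein of the large ribosomal subunit), SNRNP200 (the helicase of the U5 snRNP), UBL7 (a ubiquitin-like protein) and WDR77. In 8 of them the sites were listed together, with differences of 0 to 12 points, and none was called. In MCFD2, RALY, RPL32 and SNRNP200 the sites were never listed in the same library, as in TBKBP1 and RPLP2. FANCA had the widest of these differences, 24.0% at its Type I and 12% at its Type II site in the heavy polysome library, on 25 and 100 reads. In POLE both Type II sites stood at 16.7% there. RP3-337H4.6 had its 5′ site at 15.9%, 13.3%, 16.2% and 15.7% from the free to the monosome library, with overlapping intervals. Its other site stood at 10.0% in the large subunit library.

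The remaining properties of the sites were set beside those of the other genes without a test. Type II sites made up 15 of 69 sites in these genes, or 21.7%, and 175 of 473 sites in the other genes, or 37.0%. Outside the tight clusters the share was 15 of 45, or 33.3%. Type I sites with at least 2 G in the next 3 bases made up 42.0% and 41.0%, and other Type I sites 36.2% and 22%. Those other Type I sites were 62.5% of the clustered sites and 22.2% of the rest of the 69. Sites lay in coding sequence in 50.7% and 47.6% and in the 3′ UTR in 31.9% and 26.2%, and 13 of the 24 clustered sites lay in the 3′ UTR. In the predicted fold of the 50 nt on either side, 13 of 15 Type II sites were unpaired, against 124 of 175 in the other genes, and 19 of 54 Type I sites were, against 115 of 298.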

How the data were processed

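Poly(A)-selected RNA of 6 gradient fractions of HEK293T cells, 1 library each, was treated with bisulfite and sequenced, and groups follow the sample labels. Per the study's methods and the submitters' processing notes, the authors trimmed reads with Cutadapt 1.13 and Trimmomatic 0.36, mapped them to converted GRCh37 with HISAT2 and to the converted transcriptome with Bowtie2 2.2.9, and called sites with filters on level, coverage and unconverted reads. The deposited coverage is a count of reads with C or T. The deposited m5C level is the fraction of those reads with C. The deposited P-value is the authors' binomial test and served here only to describe the lists (largest 0.000242). Lists hold called sites only, so an absent site may have had a low level or few reads, and reads with many unconverted cytosines, which clustered m5C would give, may have been removed.

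Reads with C were recovered as level times coverage and were whole, within 1e-06, in all 1222 listings. On the listed strand of GRCh37, each of the 542 positions was a C (first base numbered 1). Summed coverage over the sites of a library ranged from 50416 to 764521 reads. Genes with 2 or more sites were counted by gene identifier. The genes and lists were chosen with earlier results of these data known. Sites were placed in GENCODE 44 lifted to GRCh37. Other matches are exact matches of the 21-nt window on either strand of the genome.

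Fisher's exact test (two-sided) compared C and T reads per site between libraries, summed where they listed the site, and per pair of sites over the libraries listing both. Zelen's exact test (two-sided) compared the odds ratios of 2 sites. Benjamini-Hochberg adjustment ran over every site or pair of the series, with a threshold of 0.05. Intervals were 95% Wilson for levels, Newcombe for differences and, for a difference of changes, built from the Newcombe limits. Without molecular identifiers, both the intervals and the tests describe counting error alone. Described by library were genes with 3 or more sites, with 3 or more libraries shared by a pair, with sites at most 10 nt apart, or with a called change. The tests were checked on simulated data. Alternatives of coverage, level, distance and summing were tried. Python 3.11.15, scipy 1.17.1, statsmodels 0.14.6 and RNAfold 2.7.2 were used. Some sequences of the set are not reported here.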

Additional observations from a re-analysis of the deposited data

Results flagged for a closer look

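Of the genes left out by name, 4 had 2 or more sites, and these are given as values because they lie outside the comparisons. No control library was available, so each level is set beside the level that 3 reads would give. The 3 is a setting for the count that a count of 0 allows. Every listing held at least 5 reads with C, so each level had to exceed that value. The comparison is therefore not a test, and the values are a description only. In RPS15A, a protein of the small ribosomal subunit, 1 site stood at 23.1% of 26 reads in the large subunit library, where 3 reads would give 11.5%. The other RPS15A site stood at 12.8% of 39 reads in the free library, where 3 reads would give 7.69%. In RPS2P7, the levels in the free library were 23.3% of 60 reads, 50.0% of 26 reads and 24.7% of 89 reads. There 3 reads would give 5.00%, 11.5% and 3.37%. The RPS2P7 site with 60 reads was also listed in the small subunit library, at 29.2% of 24 reads. In RPSAP15, the levels in the free library were 53.8% of 26 reads and 63.4% of 677 reads. There 3 reads would give 11.5% and 0.443%. The RPSAP15 site with 677 reads was listed in all 6 libraries. From the small subunit to the heavy polysome library it stood at 64.8%, 64.6%, 72.5%, 58.0% and 45.5%. In RPSAP58, the levels in the free library were 62.5% of 32 reads and 57.7% of 213 reads. There 3 reads would give 9.38% and 1.41%. The RPSAP58 site with 213 reads also stood at 51.2% in the small subunit, 60.0% in the large subunit and 65.5% in the monosome library. The RPS2P7, RPSAP15 and RPSAP58 names are those of ribosomal protein pseudogenes. In the order given above, their sites had 0, 0 and 10, 24 and 17, and 0 and 17 other matches in the genome. Both RPS15A sites had 1. Whether reads from other places entered these counts was not tested.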

How the results depend on the processing

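Of 46 values recomputed under another setting, 39 kept both sign and call, or stayed within 1.5 times the count or inside the counting interval. Several of the 39 were fixed in advance. Single sites that passed a minimum of 50 reads or of 20% level kept the same reads, so only their adjusted p could change. The WIZ 3′ site was not listed in the free library, so leaving that library out could not alter its change. No pair of the same gene was available between free RNA and heavy polysomes. The number of genes with 2 or more sites moved from 33 to 11 with sites listed in at least 2 libraries, to 18 with listings of at least 50 reads and to 5 with listings of at least 20% level. It was 27 without windows of over 100 other matches, a setting chosen after seeing the data, as was leaving out TRAF7. The share of observations in the same direction moved from 82.9% to 66.7% with at least 50 reads. The median difference within a gene moved from 5.4 to 26.6 points over pairs with a mean level of at least 20%. The called sites at the ends of the gradient moved from 1 to 3 with the monosome library in place of the free library. Among single sites, DESI1 at -1.28 points lost its call without the free library. These settings change which listings enter, and other causes were not tested. The 0 of 8 pairs with different changes stayed at 0 with at least 50 reads, where 2 pairs were left. No paired analysis was possible because each fraction had 1 library. Levels under 10% and sites under 20 reads were not listed, which limits every comparison.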
